A study of Mus musculus with 5 samples.

Results

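The genes that encode the proteins of the cytosolic ribosome were examined for enriched regions of macroH2A1.2, a variant of histone H2A, in 3T3-L1 cells. Members were the autosomal protein-coding genes of the GENCODE M21 annotation of mm10 whose symbol is Rpl or Rps followed by digits and at most 1 letter (a, l or x), together with Rplp0, Rplp1, Rplp2 and Rpsa. The rule gave 76 genes of 20807 autosomal protein-coding genes. Of the 76, 30 encode proteins of the small subunit, 3 the acidic stalk of the large subunit and 43 other proteins of the large subunit. 3T3-L1 is a mouse embryonic fibroblast line that can be turned into fat cells. In all groups a lentivirus drove stable expression of GFP-tagged macroH2A1.2, so every value concerns the tagged, overexpressed protein. Chromatin digested with micrococcal nuclease was precipitated with an anti-GFP antibody (ab290) from pre-adipocytes (2 replicates) and from mature adipocytes (2 replicates), the latter induced with IBMX, dexamethasone and insulin. The control was a library that its title and antibody field give as made without antibody. Its free-text description instead names GFP cells and an anti-GFP precipitate. Every fold enrichment here is relative to this control. The titles of the samples set the conditions, although the free-text descriptions of the 2 mature samples speak of undifferentiated cells. The tables hold no expression values, so the cell state could not be checked against marker genes.

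The authors called regions in each sample separately with SICER, which joins neighbouring enriched windows of 200 bp into broad regions. Each region comes with its ChIP reads, its control reads and their ratio after scaling by library size, the fold enrichment. The samples held 36468 to 61196 regions. Replicate 2 of pre-adipocytes was the shallow library, with a size of 0.549 relative to the control against 1.2 to 1.23 in the other three. The labels do not say whether replicates came from separate cultures, so the tests measure the spread between these samples alone, and with 2 samples against 2 the smallest two-sided p of an exact permutation test is 0.33.

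Ribosomal protein genes are short, spread over nearly all chromosomes and transcribed at very high rates in every growing cell. Their transcripts carry a run of pyrimidines at the very start, through which nutrient and growth factor signals set their translation, and their promoters mostly lack a strong TATA box. MacroH2A1 is often found in broad domains of silent chromatin such as the inactive X chromosome, and also over some transcribed genes.

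A region overlapped the body of 5 of the 76 ribosomal protein genes (6.58%) in at least 1 sample, against 16.9% of genes of like length on the same chromosomes. With 10 kb on each side included, the shares were 39.5% and 39.2%, although in each single sample that of members was the lower. A member was counted when a region overlapped its body or the 10 kb on either side by at least 1 bp. In pre-adipocytes, 16 of 76 members (21.1%) had such a region in replicate 1 and 12 (15.8%) in replicate 2, against 35% and 30.3% of all autosomal protein-coding genes. In mature adipocytes, 22 members (28.9%) had one in replicate 1 and 21 (27.6%) in replicate 2, against 41.4% and 41.6% of all genes. The numbers in mature adipocytes were thus above both numbers in pre-adipocytes without overlap. Among regions with a fold enrichment of at least 2 this separation was lost, with 3 and 9 members in pre-adipocytes and 9 and 8 in mature adipocytes. The share of all genes per sample at that fold enrichment is not given here. The means were 14.0 ± 2.83 members in pre-adipocytes and 21.5 ± 0.707 in mature adipocytes (SD, n = 2 per condition), and the difference of 7.5 had the smallest p that the exact permutation test can give (0.33, two-sided). The share of all genes rose between the conditions too, from 32.7% to 41.5% on average, and the ratio of the shares was 1.54 for members and 1.27 for all genes. The difference between these ratios was not tested.

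Members are short, with a median length of 3400 bp against 17629 bp for all genes, and a longer gene offers more room for a region. Each member was therefore set beside the 50 non-members nearest in length. Of these length-matched genes, 27.7%, 22.3%, 32.8% and 32.1% had a region in the body or flanks in the 2 pre-adipocyte samples and then the 2 mature samples, each by replicate number, so members stood below them in each of the 4 samples. Chemosensory receptor genes made up 11.9% of the length-matched genes. Without them, the shares were 30.5%, 24.3%, 35.8% and 35.3%.

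The chromosomes that carry the members differed in their share of genes with a region. Chromosome 7 carries 14 of the 76 members, and 16.7% of all its genes had a region in at least 1 sample, against 57.7% of genes on the other autosomes. A single member on chromosome 7, Rps16, had one. When the length-matched genes were taken from the same chromosome as each member, 24.6%, 19.8%, 29.2% and 29.5% of them had a region in the same order of samples, beside 21.1%, 15.8%, 28.9% and 27.6% of members. Over all samples, 30 members (39.5%) had a region in at least 1 sample, against 39.2% of length-matched genes of the same chromosome, 42.8% of those of any autosome and 53.7% of all genes.

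**Figure D1:**
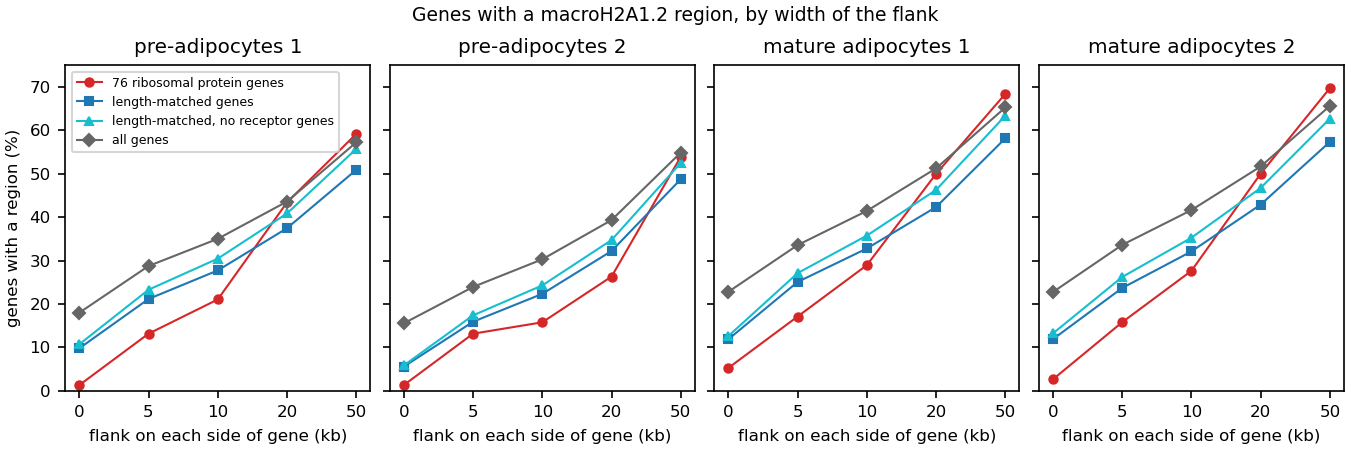
Percentage of genes with a region (y axis) against the width of the flank added on each side of the gene in kb (x axis, evenly spaced steps), in 1 panel per sample, for the 76 ribosomal protein genes (red circles), length-matched genes (blue squares), length-matched genes without chemosensory receptor genes (cyan triangles) and all autosomal protein-coding genes (grey diamonds). At a flank of 0 the members stood below all other sets in each sample, and at 50 kb they stood above both length-matched sets in each sample.

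With wider flanks the order of members and length-matched genes changed. At 20 kb on each side, a width chosen after seeing the data, 43.4% and 26.3% of members had a region in the pre-adipocyte samples, against 37.5% and 32.2% of length-matched genes. In both replicates of mature adipocytes it was 50% of members, against 42.3% and 42.9% of length-matched genes. At 50 kb, members stood above length-matched genes in every sample, with 59.2% against 50.9% and 53.9% against 48.8% in pre-adipocytes and 68.4% against 58.2% and 69.7% against 57.4% in mature adipocytes. Of all genes, 43.6%, 39.3%, 51.3% and 51.7% had a region at 20 kb, in the same order of samples, each above members. At 50 kb it was 57.25%, 54.9%, 65.3% and 65.6% of all genes, above members in replicate 2 of pre-adipocytes alone. Genes of the same chromosome were not compared at these widths. The distance from the transcription start site (TSS) to the nearest region showed the same shape. Its first quartile was longer in members (10.9 to 22.5 kb over the 4 samples) than in length-matched genes (6.33 to 14.6 kb), whereas its median was shorter (22.7 to 46.6 kb against 35.2 to 55.8 kb). The third quartile was shorter too (60 to 143 kb against 177 to 262 kb), so members were spread over a narrower range of distances.

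Within the gene bodies regions were rare. In pre-adipocytes, 1 member had a region overlapping its body in each replicate, against 18% and 15.5% of all genes and 9.79% and 5.58% of length-matched genes. In mature adipocytes 4 members in replicate 1 and 2 in replicate 2 had one, against 22.8% and 22.7% of all genes and 11.9% of length-matched genes in both replicates. These members were Rpl3, Rpl37, Rpl38, Rps14 and Rps28, so that 5 of 76 (6.58%) had a region in the body in at least 1 sample, against 31.1% of all genes, 18.7% of length-matched genes and 16.9% of length-matched genes of the same chromosome. The share with flanks over all samples was level with that of the same chromosome (39.5% against 39.2%), although members were lower in each single sample. With the chromosome taken into account, the share in the body was lower in each sample and over all samples. Without chromosome 7, the body share over all samples was 5 of 62 members (8.06%) against 20.2%.

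Gene records can be extended by minor transcripts, and the extent was therefore taken again from the principal transcript of each gene, an alternative chosen after seeing the data. No member then had a region in its body in pre-adipocytes, against 16.3% and 14.1% of all genes and 9.11% and 5% of length-matched genes. In mature adipocytes, Rpl38 and Rps28 had one in replicate 1 and Rpl3 and Rpl37 in replicate 2. No member had one in each replicate of the same condition. The body region of Rps14 in replicate 1 of mature adipocytes overlapped long transcripts that begin farther upstream and lay before the principal start, and those of Rpl3 lay upstream of the principal start in 3 of the 4 samples.

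Over the TSS itself, no member had a region in either replicate of pre-adipocytes, against 6.14% and 2.3% of all genes and 5.68% and 2.05% of length-matched genes. In mature adipocytes there were 2 members in replicate 1, Rpl3 and Rpl38, and none in replicate 2, against 5.78% and 5.43% of all genes. In all, 2 of 76 members (2.63%) had a region over the TSS in at least 1 sample, against 11.7% of all genes, 11.2% of length-matched genes and 10.8% of those of the same chromosome. The difference of 1.0 member between conditions did not exceed the spread of the replicates (exact permutation test, two-sided, p = 1). With principal transcripts there was 1 member in each mature replicate, Rpl38 in replicate 1 and Rpl3 in replicate 2.

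The same was seen in the share of bases. Within 2 kb of the TSS, 1.03% and 1.19% of bases lay in a region in pre-adipocytes and 2.59% and 1.35% in mature adipocytes, against 6.71%, 2.83%, 7.23% and 6.45% around length-matched genes. Farther upstream, at 5 to 10 kb, members had 9.61%, 4.26%, 4.95% and 8.46%, against 11.1%, 4.74%, 11.5% and 10.5%. Downstream, between 2 and 10 kb from the TSS, members had 2.33%, 0.998%, 2.11% and 1.5%, against 8.18%, 3.52%, 8.13% and 7.87%, so the coverage stayed low past the short gene bodies. Over the whole windows, 4.59% and 2.69% of bases were covered in pre-adipocytes and 3.73% and 4.09% in mature adipocytes, against 9.1%, 4%, 9.27% and 8.67% for length-matched genes. Between conditions this share differed by 0.27 percentage points, less than the spread between replicates (exact permutation test, two-sided, p = 1). Without replicate 2 of pre-adipocytes its direction turned, to -0.68.

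Reads had to map to a single place, and ribosomal protein genes have many processed copies in the genome. The annotation lists 281 pseudogenes named after 55 of the members. Of these 55 members, 2 had a region in the body, and of the 21 members without a named pseudogene 3 had one. The part of read mapping in the low coverage of the bodies was not tested, because the tables hold no read counts outside regions.

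Rpl38, a protein of the large subunit known for its part in translating Hox transcripts, had its start in a region in replicate 1 of mature adipocytes by both the gene record and the principal transcript, which in Rpl3 were covered in different samples. The gene lies on chromosome 11 on the plus strand. In replicate 1 of mature adipocytes a region of 1800 bp at chr11:114667401-114669200 held 71 ChIP reads and covered the TSS, with a fold enrichment of 2.31, and a second region 5677 bp downstream had 1.94. In replicate 2 a region of 600 bp at chr11:114667801-114668400 held 40 ChIP reads at a fold enrichment of 3.69, and ended 124 bp before the TSS. In pre-adipocytes the nearest regions were 13548 and 14748 bp from the principal start. Both mature samples thus had a region at the Rpl38 promoter and neither pre-adipocyte sample had one, on counts of 40 to 71 reads.

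RefSeq promoter windows (GRCm38.p6, 300 bases of which the last 50 run from the start) were matched to 56 of the 76 members by symbol. A region touched the promoter window of Rpl38 in both mature samples and that of no other of the 56, whereas 9.76% to 10.4% of the windows of all autosomal RefSeq genes were touched in the 3 deeper samples and 4.47% in replicate 2 of pre-adipocytes. Members without a matched window could not enter this count. The region over the principal start of Rpl3 in replicate 2 of mature adipocytes is not in it. The whole window of Rpl38 lay in the region of replicate 1 and 71 of its bases in that of replicate 2. It is shown with the windows of Rps10 and Rpl6, whose regions in all 4 samples stopped short of the window. The Rpl6 region of replicate 2 of mature adipocytes ended at chr5:121204200, 281 bp before the TSS and less than 200 bp before its window. That Rpl6 was not counted therefore depends on where the window begins. Each window is written 5′ to 3′ on the strand of the gene. Capitals mark the run of pyrimidines that begins at the start and the letters CCGGAAG, the core bound by ETS factors.
Rpl38: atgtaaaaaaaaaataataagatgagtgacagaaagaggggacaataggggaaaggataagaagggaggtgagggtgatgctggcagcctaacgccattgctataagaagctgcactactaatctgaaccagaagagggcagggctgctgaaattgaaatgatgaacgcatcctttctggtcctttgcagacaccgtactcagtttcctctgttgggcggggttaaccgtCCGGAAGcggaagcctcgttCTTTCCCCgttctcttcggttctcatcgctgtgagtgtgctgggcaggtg
Rps10: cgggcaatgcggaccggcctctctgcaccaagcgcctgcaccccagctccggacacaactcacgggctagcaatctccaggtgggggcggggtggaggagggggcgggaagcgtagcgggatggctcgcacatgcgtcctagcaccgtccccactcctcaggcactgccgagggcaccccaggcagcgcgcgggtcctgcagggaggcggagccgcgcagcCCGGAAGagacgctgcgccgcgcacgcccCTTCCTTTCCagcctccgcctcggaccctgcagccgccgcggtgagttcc
Rpl6: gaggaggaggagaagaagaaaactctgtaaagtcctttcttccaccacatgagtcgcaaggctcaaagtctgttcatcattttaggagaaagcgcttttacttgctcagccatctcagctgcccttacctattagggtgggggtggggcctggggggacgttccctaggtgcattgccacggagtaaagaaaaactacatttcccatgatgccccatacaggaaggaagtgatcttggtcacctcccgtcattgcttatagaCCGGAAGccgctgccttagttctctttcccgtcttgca
The 3 windows are chr11:114668330-114668629 (plus strand), chr17:27635195-27635494 (minus strand) and chr5:121204251-121204550 (plus strand).

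The start of Rpl38 is followed by a pyrimidine run of 8 bases and that of Rps10 by one of 10, while Rpl6 has none at the RefSeq start. A C followed by at least 4 pyrimidines stood at the start of 12 of the 56 member windows (21.4%) against 2.56% of the windows of all genes, taking 1 window a gene. CCGGAAG, on either strand and anywhere in the window, was in 23 of 56 (41.1%) against 9.26%. GGGCGG, the core of the Sp1 site, was in 32 (57.1%) against 36%, and AAGATGGC, the core of the YY1 site, in 4 (7.14%) against 2.85%, whereas TATAAA was in 3 (5.36%) against 14.2%. Each motif was searched on both strands. Rpl38 therefore shares letters that were more frequent in the member windows than in those of all genes. Members with and without a region were not counted apart, and a match of letters says nothing about binding.

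Rpl3, which lies near the peptidyl transferase centre of the large subunit, was the member with the most regions. Its principal transcript runs from 80077791 to 80083406 on the minus strand of chromosome 15, while the gene record extends to 80091868. In pre-adipocytes replicate 1 had a region at chr15:80083801-80091000 with a fold enrichment of 1.45 over 248 reads, and replicate 2 had regions of 2200 and 3400 bp in the same stretch with 1.99 and 2.57. In replicate 1 of mature adipocytes, regions of 5200 and 5000 bp had 1.42 and 1.60, the second of which covered the far end of the record and was counted as lying over the TSS. In replicate 2 a region of 7000 bp with 1.30 reached past the principal start and overlapped 83 bp of exon. Relative to the principal start, the nearest region stood 395 and 995 bp upstream in pre-adipocytes and 995 bp upstream and over it in mature adipocytes. Further regions lay in the neighbouring gene Syngr1 in all 4 samples, at fold enrichments of 1.68 and 2.25 in pre-adipocytes, in replicate 1 of mature adipocytes in the region of 5000 bp already given, and of 2.05 and 2.49 in replicate 2. Downstream of the gene, regions had 1.89 and 1.78 in pre-adipocytes, 2.54 in replicate 1 and 2.03 and 1.72 in replicate 2 of mature adipocytes.

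**Figure D2:**
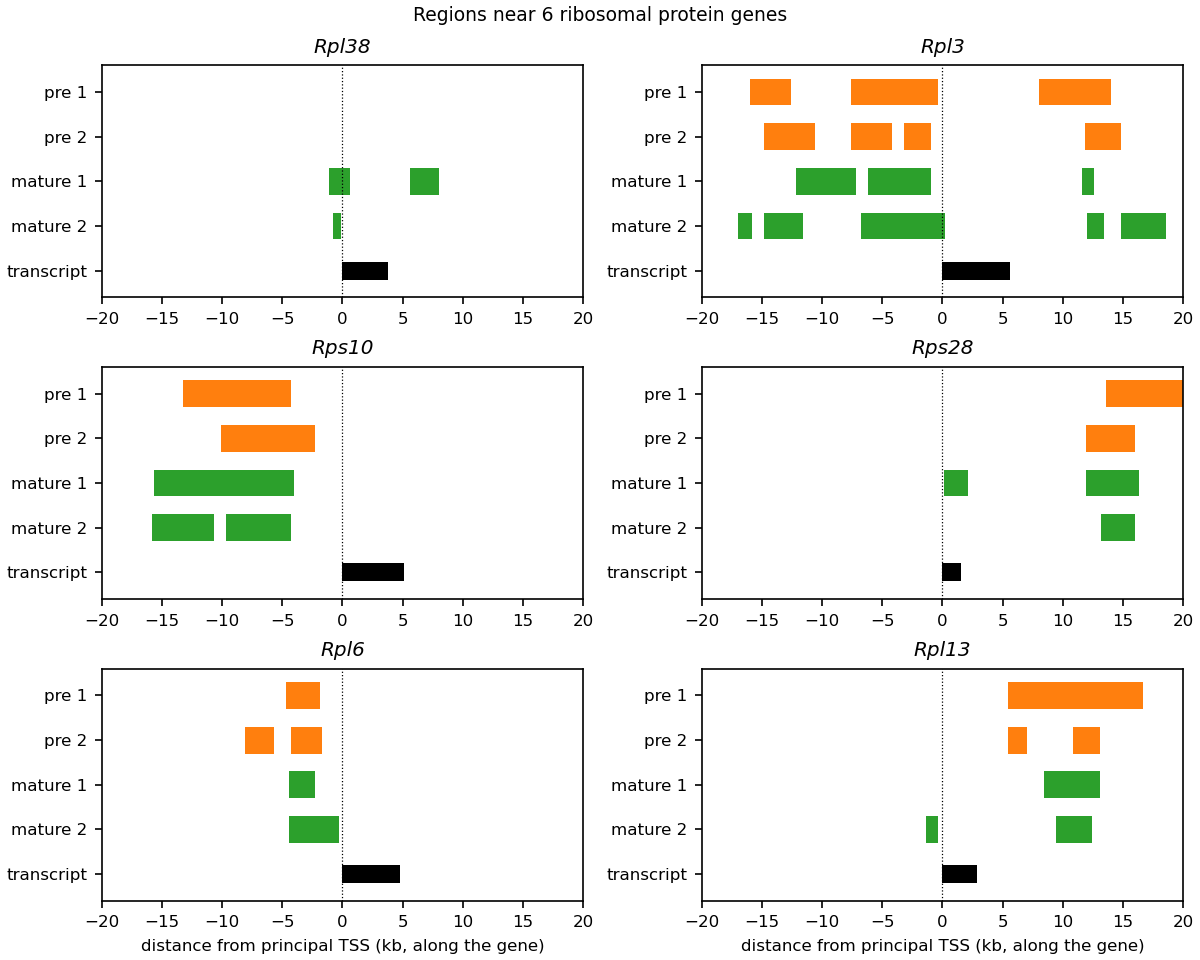
Regions called near 6 members, by distance from the start of the principal transcript in kb along the direction of transcription (x axis), with 1 row per sample (orange, pre-adipocytes; green, mature adipocytes) and the principal transcript in black in the lowest row. Bars show the extent of each region that overlapped the gene record or its 10 kb flanks. Regions flank the transcripts in most panels, and the mature adipocyte samples have a region at the start of Rpl38 where the pre-adipocyte samples have none.

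Besides Rpl3, 6 members had a region in all 4 samples, making 7 of 76 (9.21%) against 21.1% of all genes and 15.1% of length-matched genes. At Rpl6 the regions lay upstream, their near edges 1881 and 1681 bp from the TSS in pre-adipocytes and 2281 and 281 bp in mature adipocytes. Their fold enrichments were 2.60 and 2.88 in pre-adipocytes and 2.26 and 2.13 in mature adipocytes, and replicate 2 of pre-adipocytes had a further region with 2.65. Rpl6, a large subunit protein that also binds Mdm2, thus carried the highest mean among the members with a region in all samples. At Rps10, which sits at the entry of the messenger RNA and is ubiquitinated on collided ribosomes, the near edge stood 3132 and 1132 bp upstream in pre-adipocytes and 2932 and 3132 bp upstream in mature adipocytes. The fold enrichments were 1.99, 2.47, 2.21 and 2.41 in that order, with a further region of 1.78 in replicate 2 of mature adipocytes. These regions spanned 5200 to 11600 bp, among the longer ones of the members.

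Rps27l, a p53-responsive paralog of Rps27, had regions 5086, 4086, 3686 and 5486 bp upstream of the TSS, with fold enrichments of 1.93, 2.46, 1.78 and 2.21, and replicate 1 of pre-adipocytes had a further region with 1.59. At Rps23, a protein of the decoding centre, the regions did not fall on one place. They lay 9358 and 2758 bp upstream in pre-adipocytes and 6958 and 7358 bp upstream in mature adipocytes, with fold enrichments of 1.57, 1.95, 2.77 and 1.68. No merged region at Rps23 was called in all 4 samples, so its presence in each sample rests on different stretches.

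Rpl13 and Rps28 had their shared regions downstream, overlapping other protein-coding genes. At Rpl13 the downstream regions had fold enrichments of 2.07 in replicate 1 of pre-adipocytes, 2.51 and 1.86 in replicate 2, 2.10 in replicate 1 of mature adipocytes and 2.33 in replicate 2. Replicate 2 of mature adipocytes also had a region with 1.72 that ended 350 bp upstream of the TSS. All of these overlapped Gm20388, a locus that spans Rpl13. At Rps28, a small subunit protein near the exit of the messenger RNA, the downstream regions over the neighbour Kank3 had 1.71, 1.67, 1.61 and 1.70, and the first, of 29200 bp with 1213 reads, also reached Angptl4, an adipocyte gene that inhibits lipoprotein lipase. Replicate 1 of mature adipocytes had a region in the body of Rps28 with 1.59 over 74 reads, which the other samples lacked.

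In both replicates of pre-adipocytes, 10 members (13.2%) had a region, against 24.2% of all genes and 18.1% of length-matched genes. Apart from the members with a region in every sample these were Rpl11, Rpl35a and Rps12. Rpl11, which with Rpl5 binds Mdm2 when ribosome assembly fails, had regions upstream with 2.21 in replicate 1, 2.17 and 4.74 in replicate 2 and 2.00 in replicate 1 of mature adipocytes. The value of 4.74 was the highest of any region near a member and rests on 26 ChIP reads. Rpl35a, mutated in some patients with Diamond-Blackfan anaemia, had 1.18 and 1.62 in pre-adipocytes and 1.38 in replicate 1 of mature adipocytes, in regions that overlap Iqcg. Rps12 had 1.46 and 2.38 in pre-adipocytes and 1.55 in replicate 2 of mature adipocytes. Each of the 3 therefore also had a region in 1 mature replicate, and no member had regions in both pre-adipocyte replicates and in neither mature replicate, a pattern seen in 0.913% of all genes.

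In both replicates of mature adipocytes, 16 members (21.1%) had a region, against 34.4% of all genes and 26.5% of length-matched genes. Of these, 6 had none in either pre-adipocyte sample (7.89% of members, against 4.86% of all genes and 4.32% of length-matched genes), among them Rpl26, Rpl38, Rps2, Rps24 and Rpsa. At Rpsa, which also serves as a laminin receptor, the regions were downstream, with 2.90 and 1.86 in replicates 1 and 2. At Rps24 they were downstream, with 1.84 and 1.90, at Rpl26 upstream, with 1.63 and 1.47, and at Rps2 the downstream region of replicate 1 had 1.53 and the upstream region of replicate 2 had 1.43. At Rpl26, Rps24 and Rps2 the regions of the 2 replicates did not overlap each other, whereas at Rpl38 and Rpsa the same stretch was called in both mature replicates. These calls rest on 40 to 121 reads per region, and a region missing in a sample can have fallen short of the threshold rather than lacked enrichment.

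A further 3 members had a region in both mature replicates and 1 pre-adipocyte replicate. Rpl5 had upstream regions with 1.38 in replicate 1 of pre-adipocytes and 1.41 and 1.57 in mature adipocytes. Rpl23, another Mdm2-binding protein, had 1.31 in replicate 1 of pre-adipocytes and 1.41 and 1.31 in mature adipocytes. Rps16 had 2.38 in replicate 2 of pre-adipocytes, 1.82 in replicate 1 of mature adipocytes and 1.98 and 2.15 in replicate 2. In all, 19 members had a region in each replicate of at least 1 condition. Of the other members with a region, Rpl31 and Rpl35 had one in 1 replicate of each condition, at 1.39 to 1.61. A region in a single sample was found for 9 members (11.8%), against 11.9% of all genes and 10% of length-matched genes. These 9 were Rpl19, Rpl30, Rpl37, Rpl37a, Rpl3l, Rps14, Rps21, Rps26 and Rps27a. The strongest of the 9 was at Rpl19, with 2.78 over 32 reads in replicate 2 of pre-adipocytes.

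**Figure D3:**
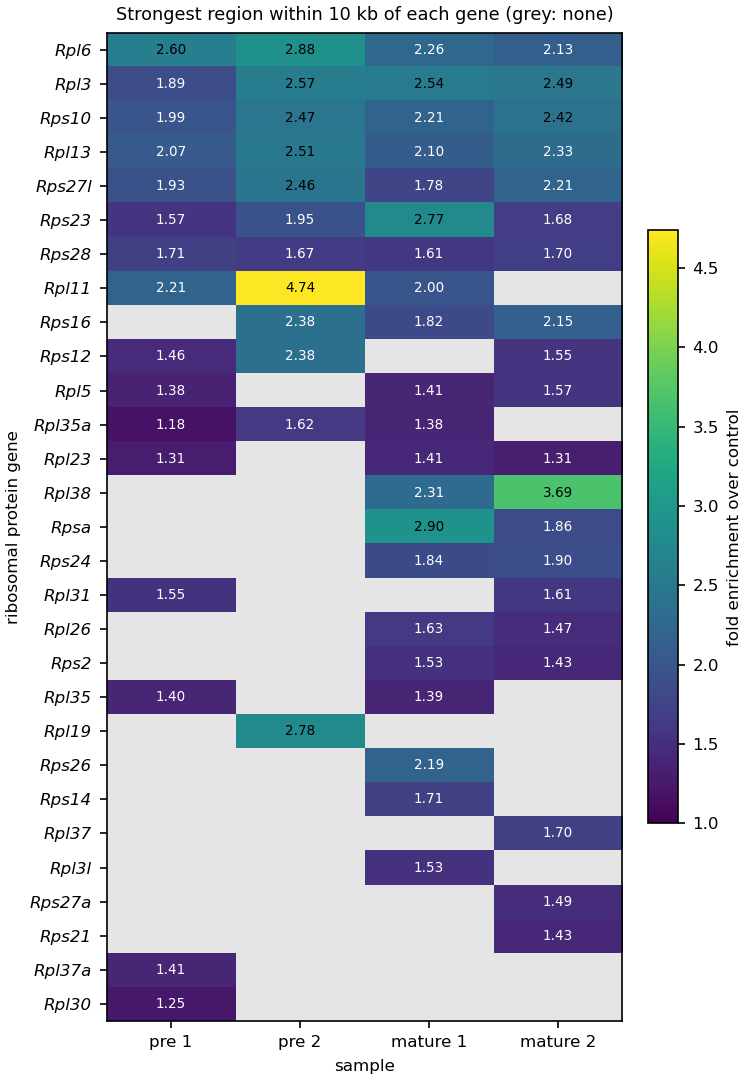
Fold enrichment over the control of the strongest region in the body or 10 kb flanks (colour and printed value) of 29 of the 30 members with a region (rows) in each sample (columns), sorted by the number of samples with a region and then by the mean. Grey cells have no region, and 7 members have a value in every column.

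Over members and samples there were 94 distinct regions, of which 60 lay upstream of the gene, 24 downstream and 10 touched the body, and 4 touched an exon of a member. More upstream than downstream coverage was also found over all genes and, with closer values, over length-matched genes. Over all genes, 12.4%, 5.64%, 11.8% and 11.3% of the 10 kb upstream lay in a region in the pre-adipocyte and then the mature samples, against 7.81%, 3.44%, 7.73% and 7.5% of the 10 kb downstream. Around members the values were 7.27%, 4.53%, 5.17% and 6.74% upstream and 3.03%, 1.34%, 2.52% and 2.26% downstream. For length-matched genes they were 10.4%, 4.59%, 10.7% and 9.81% upstream and 8.97%, 3.99%, 9.18% and 8.72% downstream. The wider gap around members was not tested. Another protein-coding gene was overlapped by 30 of the 94 (31.9%). In 19 of the 30 members with a region, all of their regions were upstream. For these counts no share over all regions or genes is given here. One region, downstream of Rps2 and upstream of Rpl3l, was counted for both, since their windows overlap.

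The remaining 46 members had no region within 10 kb in any sample. All 3 genes of the acidic stalk, which recruits elongation factors, were among them. The lowest distance over the 4 samples from the gene to a region was 53067 bp for Rplp0, 11084 bp for Rplp1 and 66770 bp for Rplp2. Just outside the flank, and nearer than Rplp1, stood Rpl34 at 10631 bp and Rpl14 at 10747 bp. Among the farthest from any region were Rps7 on chromosome 12 at 1076054 bp and Rpl10l, a testis paralog of Rpl10, at 433200 bp. Rpl39l, another paralog expressed in testis, was 58290 bp from a region, and Rpl3l, the striated muscle paralog of Rpl3, had regions in replicate 1 of mature adipocytes alone, with 1.53 upstream and 1.44 downstream. The stretch downstream of Rpl3l was called in the other samples too, beyond 10 kb from the gene.

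By subunit, 16 of the 43 large subunit genes outside the stalk and 14 of the 30 small subunit genes had a region in at least 1 sample, against 53.7% of all genes. For the large subunit without the stalk, the mean share over replicates went from 19.8% before differentiation to 23.2% after it. For the small subunit it went from 18.3% to 38.3%. Over all genes it went from 32.7% to 41.5%. The small subunit shares rest on 5 and 6 of the 30 genes in pre-adipocytes and 11 and 12 in mature adipocytes. The difference between the subunits was not tested. Other gene groups of protein synthesis and turnover gave a yardstick. The mean share with a region in the body or flanks was 16.7% and 24.4% in pre-adipocytes and mature adipocytes for 78 mitochondrial ribosomal protein genes, 26% and 36.5% for 52 initiation factor genes, 15.4% and 30.8% for 13 elongation factor genes, 28.2% and 39.8% for 39 proteasome subunit genes and 22.4% and 20.7% for 29 ribosome assembly factor genes. With 18.4% and 28.3%, the cytosolic ribosomal protein genes lay within the range of these groups. In the body, they had 1.32% and 3.95%, beside 1.28% and 5.77% for the mitochondrial ribosomal proteins, 1.92% and 5.77% for initiation factors and 3.85% and 15.4% for proteasome subunits, whose genes are longer. Elongation factors had 3.85% and 11.5%, and ribosome assembly factors 0% and 3.45%. Low shares in the body were thus also found in some of these groups. In mature adipocytes the shares of proteasome subunits and elongation factors were above that of members. These groups were not set beside genes of like length.

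The strength of the regions near members was that of regions in general. The median fold enrichment of regions in member windows was 1.57 and 2.38 for the pre-adipocyte samples and 1.71 and 1.72 for the mature samples, against 1.61, 2.01, 1.79 and 1.81 over all autosomal regions. The difference of -0.26 between conditions lay within the spread of the pre-adipocyte replicates (exact permutation test, two-sided, p = 1) and turned to 0.14 without replicate 2 of pre-adipocytes, whose depth moved with its higher values. Regions were merged over samples and those called in all 4 were compared for read density, of which 10 overlapped a member window by at least 1 bp. The merged regions at Rpl3l, Rpl35a and Rps28 and the longest one at Rpl3 lay mostly beyond the 10 kb flank. Their values therefore mostly concern the stretch outside the window. None of the 10 passed an adjusted p of 0.05 in edgeR's quasi-likelihood test, where 11 of the 12857 regions tested (0.0856%) passed. At an unadjusted p under 0.05 there were 3 of the 10, against 9.15% of all regions, and none by DESeq2. The number of regions passing among all those tested depended on the samples, from 1 without replicate 2 of mature adipocytes and 5 without replicate 1 to 112 without replicate 1 of pre-adipocytes and 224 without replicate 2, and was 0 with scaling by library size, while none of the 10 passed in any of these fits.

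The log2 fold changes of the 10 regions, mature adipocytes over pre-adipocytes, ran from -0.38 to 0.48 with a median of -0.06, and 4 were above 0. The region downstream of Rpl3l and the one downstream of Rpl3 were at the ends, with -0.38 ± 0.15 (SE, adjusted p = 0.42 in edgeR) and 0.48 ± 0.21 (SE, adjusted p = 0.476 in edgeR). Most of the merged region at Rpl3l lay beyond the 10 kb flank. For the region upstream of Rpl6 the log2 fold change was -0.30 ± 0.18 (SE, adjusted p = 0.655 in edgeR). For Rps10 the reads per kb of called region, scaled by library size, were 32.5 and 37.4 in pre-adipocytes and 37.9 and 34.9 in mature adipocytes, and the groups overlapped, with a log2 fold change of 0.06 ± 0.10 (SE, adjusted p = 0.896 in edgeR). For Rps28, whose merged region lay mostly beyond the flank, they were 34.6, 38.2, 34.6 and 35.7 in the same order. For Rpl6 they were 36.2 and 42.1 in pre-adipocytes and 27.8 and 34.5 in mature adipocytes, lower in both mature samples but not past the threshold. Stretches called in 1 condition and not in the other, such as that at Rpl38, did not enter this test. Since density was taken over the called length, a change in that length did not enter either. Without the offset of called length, the median log2 fold change of the 10 regions was -0.36, and none passed (smallest adjusted p = 0.18 in edgeR).

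**Figure D4:**
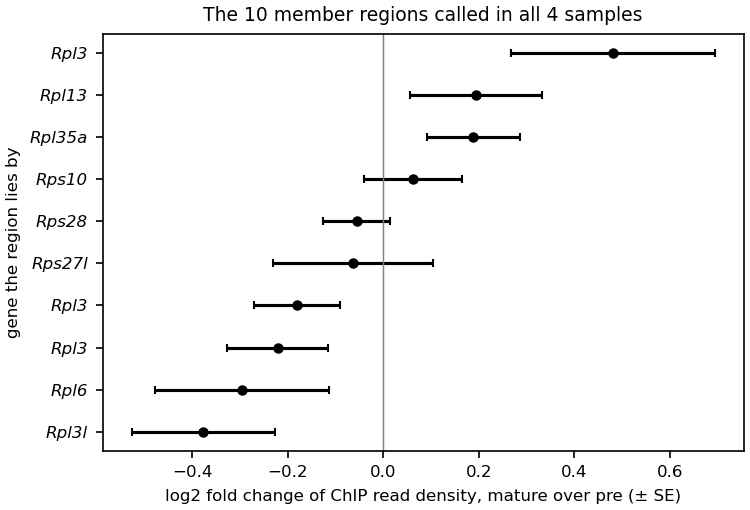
Log2 fold change of ChIP read density in mature adipocytes over pre-adipocytes (x axis) for the 10 merged regions overlapping member windows that were called in all 4 samples (rows, named by the member), with bars of 1 standard error from edgeR. The values run from -0.38 to 0.48, and none passed an adjusted p of 0.05.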

How the data were processed

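MacroH2A1.2-GFP was immunoprecipitated from 3T3-L1 pre-adipocytes (2 samples) and mature adipocytes (2 samples), with 1 control library without antibody, whose own table was not used here. Alignment by the authors was to mm10 with Bowtie 1.1.2 (uniquely mapping reads, few mismatches), removed duplicates with Picard and called regions per sample with SICER 1.1. Versions are those of the submitters' processing notes. The deposited tables hold per region the raw count of ChIP and of control reads, a p-value and an FDR, and the authors' fold enrichment, the ratio of both counts after scaling by library size. The largest FDR in the tables was 0.001. Total library sizes were not in these tables and were taken relative to the control from the fold enrichment.

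Regions, 0-based in the tables, are printed 1-based. They were overlapped by at least 1 bp with gene records of GENCODE M21, and a gene window is the body with 10 kb on each side. Each member was compared with the 50 autosomal protein-coding non-members nearest in log length. The members, the comparison groups (Mrpl and Mrps, Eif, Eef, Psma to Psmd, assembly factors) and the tests were chosen with earlier results of these data known. Exact permutation tests compared the values of the samples. Reads of merged regions called in all 4 samples (12857 of 62927) were tested with edgeR 4.0.16 (quasi-likelihood, TMM on length-scaled counts, offset of log called length, Benjamini-Hochberg adjustment), and DESeq2 1.42.0 was an alternative. Standard errors were the absolute log2 fold change divided by the square root of the F statistic. Principal transcripts were basic, APPRIS principal protein-coding transcripts with the best support level. The genes named in the text are those with a region in each replicate of at least 1 condition or over the TSS, the 3 nearest to and 3 farthest from a region among those without, the stalk genes, Rpsa and the paralogs Rpl3l, Rpl10l, Rpl39l and Rps27l, and others were added after their values were seen. Single values of some members are not reported here. Scripts were tested on simulated data. Alternatives covered the flank, FDR, fold enrichment, overlap, regions in common between replicates, the extent of genes, the matching and leaving out each sample. The software was R 4.3.3 with limma 3.58.1, and Python 3.11.15 with matplotlib 3.10.9, scipy 1.17.1, pandas 2.3.3 and numpy 2.4.6. Counts per region cover counting error only, and signal outside called regions was not analysed here.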

Additional observations from a re-analysis of the deposited data

How the results depend on the processing

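The mean number of members with a region stayed higher in mature adipocytes under all 15 alternatives tried, with a difference of 5.5 to 9.5 when 1 sample was left out, 2.0 with the gene body alone and 11.5 with 20 kb flanks. At a fold enrichment of at least 2 the difference was 2.5 and the conditions overlapped (exact permutation test, p = 1). With 2 samples a group, an exact p of 0.33 is the floor and says nothing about stability. The number with a region in both mature replicates, 16 as reported, was 1 with the body alone, 6 with 5 kb flanks, 34 with 20 kb, 49 with 50 kb and 5 at a fold enrichment of at least 2. For both pre-adipocyte replicates, 10 as reported, these numbers were 1, 6, 18, 35 and 3, and 6 at an FDR of at most 1e-05. In both mature replicates the same settings gave 17.8%, 26.8%, 44.8%, 60.1% and 14.4% of all genes. Length-matched genes had 8.08%, 18.8%, 36.45%, 52.7% and 10.9%. In both pre-adipocyte replicates the settings gave 11.8%, 18.4%, 32.7%, 47.8%, 6.68% and, at that FDR, 18% of all genes. For length-matched genes it was 3.97%, 11.8%, 26.9%, 42.7%, 4.42% and 12.8%. The body and flank widths change the space counted. The difference in members with a region over the TSS ranged from 0.0 to 2.0 on leaving out 1 sample, with 0.0 without replicate 1 of mature adipocytes, since both calls were made in that sample. The difference in covered window share, 0.27 percentage points, was -0.085 at a fold enrichment of at least 2 and ranged from -0.68 to 1.22 on leaving out 1 sample. That in median fold enrichment, -0.26, ranged from -0.66 to 0.14. For both, the reversal came without replicate 2 of pre-adipocytes, and the cause was not tested.

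The mean share of length-matched genes with a region, 28.7% as reported, was 31.4% without chemosensory receptor genes and 25.8% with genes of the same chromosome, both chosen after seeing the data, as were the 20 kb flanks, the principal transcripts and leaving out chromosome 7, which left the difference in members at 7.0. In the density test 0 of the 10 member regions passed under each alternative, which were DESeq2, scaling by library size, no length offset, a minimum of 50 reads (9 regions tested) and leaving out each sample. At an unadjusted p under 0.05 there were 0 to 3 under these. Samples with the same replicate number did not deviate together (correlation 0.0078), so the numbers were not taken as pairs, and with the replicate block 0 of the 10 regions passed and 27 of all regions against 11 without it. Over the other fits 0 to 224 of all regions passed. The block left the difference in members with a region at 7.5 (exact permutation within replicate numbers, p = 0.5). Depth differed between samples, and member regions held a median of 47 ChIP reads in replicate 2 of pre-adipocytes and 95 to 181 in the others.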

Other observations

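Of the genes of the same family outside the rule, 4 on the X chromosome and 5 on autosomes, Rpl7l1 alone had a region within 10 kb. Over all autosomal protein-coding genes, 53.7% had one in at least 1 sample. No such share was taken for the X chromosome, and the count was not tested. The X-linked genes Rpl10, Rpl36a, Rpl39 and Rps4x had no region within 10 kb in any of the 4 samples, and the nearest region of any sample lay 114212 bp from the TSS of Rpl10, 125947 bp from that of Rpl36a, 62202 bp from that of Rpl39 and 128794 bp from that of Rps4x. Among autosomal genes whose symbols fall outside the rule, Rps3a1, Rpl22l1, Rpl36al and Rps27rt had none either, with a lowest distance of 18499 bp for Rps3a1 and 95283 bp for Rpl36al.

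Rpl7l1 is a paralog of Rpl7. It had a region in replicate 1 of pre-adipocytes with a fold enrichment of 1.57 over 160 reads, and in replicates 1 and 2 of mature adipocytes with 2.16 over 69 reads and 1.87 over 61 reads. Their near edges stood 3329, 3529 and 4529 bp from its TSS, while in replicate 2 of pre-adipocytes the nearest region was 113929 bp away.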
